A study of Mus musculus with 5 samples.

Results

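The cell cycle and replication licensing genes were followed as a set of 41 genes listed by symbol. A gene was taken from the rows of the expression table whose platform annotation gave exactly 1 gene symbol, and its brightest row on average stood for a gene with several rows. This gave 39 of the 41 genes, among 19938 genes tested in all. They comprised 16 genes of DNA replication, 18 of 19 genes of mitosis, 3 D-type cyclins and 2 of 3 inhibitors of cyclin-dependent kinases (CDKs). Ccnb1 and Cdkn1a had no row of their own and were not analysed here. No filter on low signal was applied, so all 39 entered the test.

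The tissue was cartilage from the mandibular condyle, the part of the lower jaw that turns in the temporomandibular joint, from mice of strain 129/Sv. The arrays held total RNA of 2 DDR-1-KO mice, which lack discoidin domain receptor 1, a collagen-binding receptor tyrosine kinase, and of 3 wild type mice. The labels give no age, sex, treatment or description of the knockout allele. Mice are numbered as labelled, and the dates in the array names put knockout 2 and wild type 3 in date group 1, and knockout 5 and wild types 4 and 6 in date group 2. What was done on these dates is not stated. Values are log2 RMA signals, summarised over the probes of a transcript by the authors. Their spread and median over genes differed between arrays, as given below, so the arrays are not taken as matched in distribution. A change is the knockout mean minus the wild type mean of these log2 values.

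A cell commits to division when D-type cyclins with Cdk4 or Cdk6 release E2F transcription factors from the retinoblastoma protein. Before DNA is copied, the origin recognition complex, Cdc6 and Cdt1 load the Mcm2 to Mcm7 helicase ring onto origins, a step called licensing, which geminin blocks once replication has begun. Mitotic genes come later and are largely silenced in resting cells through a promoter element called the cell cycle genes homology region (CHR). In condylar cartilage, division is concentrated in a thin layer of progenitors beneath the fibrous surface, and chondrocytes leave the cycle as they mature.

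The 2 classes of genes differ in their promoters. Both motifs searched belong to the regulation described above and were chosen after values were seen. Their contrast between the classes is thus a trait of the genes and no independent result of these arrays. RefSeq windows from 250 bases before to 50 bases after the transcription start (build GRCm38.p6) were found for 29 of the 39 genes. E2F sites were searched on both strands as TTTCGCGC, TTTGGCGC, TTTCCCGC or TTTGCCGC, and CHR sites as TTTGAA or TTCGAA, with overlapping matches counted. An E2F sequence was in 7 of 13 replication genes (53.8%), in 1 of 14 mitotic genes (7.14%) and in 2.60% of all 27025 genes with a window. A CHR sequence was in 2 of 13 replication genes (15.4%), in 11 of 14 mitotic genes (78.6%) and in 21.7% of all genes. A match is a run of letters and not a measured binding site. The windows of 2 licensing genes with an E2F match and of 2 spindle genes with a CHR match are shown, because Cdc6 and Mcm5 were lower in both knockouts and Bub1 and Kif11 were high in knockout 2 alone. Capitals mark the E2F letters in Cdc6 (chr11:98907901-98908200, + strand) and Mcm5 (chr8:75109259-75109558, + strand). They mark the CHR letters in Bub1 (chr2:127831810-127832109, - strand) and Kif11 (chr19:37376132-37376431, + strand).
Cdc6: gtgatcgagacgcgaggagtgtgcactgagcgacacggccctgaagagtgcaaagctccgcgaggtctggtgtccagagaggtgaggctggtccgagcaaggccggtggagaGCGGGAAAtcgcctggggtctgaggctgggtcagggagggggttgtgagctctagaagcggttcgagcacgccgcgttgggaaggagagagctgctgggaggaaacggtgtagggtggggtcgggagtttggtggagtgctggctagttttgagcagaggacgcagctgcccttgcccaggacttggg
Mcm5: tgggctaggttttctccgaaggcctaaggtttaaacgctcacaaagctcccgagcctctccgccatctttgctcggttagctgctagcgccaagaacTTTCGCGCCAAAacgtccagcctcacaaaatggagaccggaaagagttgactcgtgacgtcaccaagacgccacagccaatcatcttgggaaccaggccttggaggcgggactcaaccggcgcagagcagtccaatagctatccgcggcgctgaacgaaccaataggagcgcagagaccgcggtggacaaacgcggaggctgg
Bub1: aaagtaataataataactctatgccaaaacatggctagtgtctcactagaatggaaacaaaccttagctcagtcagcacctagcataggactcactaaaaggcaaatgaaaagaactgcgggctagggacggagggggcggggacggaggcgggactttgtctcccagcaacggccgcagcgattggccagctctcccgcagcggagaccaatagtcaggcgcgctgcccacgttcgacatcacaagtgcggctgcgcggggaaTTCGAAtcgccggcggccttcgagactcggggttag
Kif11: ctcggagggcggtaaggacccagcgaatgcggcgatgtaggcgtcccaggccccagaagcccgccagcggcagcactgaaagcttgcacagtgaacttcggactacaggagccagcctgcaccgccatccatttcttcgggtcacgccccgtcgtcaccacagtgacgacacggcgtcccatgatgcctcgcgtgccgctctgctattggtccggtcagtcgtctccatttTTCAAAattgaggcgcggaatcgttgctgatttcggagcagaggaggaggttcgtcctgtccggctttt
The E2F match of Cdc6 begins 138 bases before the start. The 2 matches of Mcm5 overlap and begin 153 and 149 bases before it. The CHR match of Kif11 begins 19 bases before the start and that of Bub1 at base 15 of the transcript.

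Of the 39 genes, 2 fell and 0 rose in knockout cartilage at limma's adjusted p under 0.05, and 37 did not pass. Over all genes 2.18% fell, 1.55% rose and 3.73% passed in either direction. Without an adjustment, 10 of the 39 genes had p under 0.05, and 3637 of all 19938 genes. The count of 2 became 0 without wild type 3, 4 or 6 and with the date group as a block or cyclic loess. It became 16 without knockout 2 and 24 without knockout 5, where the spread came from wild type alone. The median change of the 39 genes was -0.063, beside -0.0083 over all genes. With the dimmest genes left out, the median over all genes was -0.076, and 402 fell and 104 rose at limma's adjusted p under 0.05. The background thus varied with signal level, and the 39 genes were not compared with genes of matched level. The groups did not overlap in 12 of the 39 genes, 10 of them lower and 2 higher in knockout. Over all genes they did not overlap in 31.5%, with 18.6% lower and 13.0% higher. The share of genes without overlap was thus close to that of all genes. In bulk tissue, fewer dividing cells and less RNA per cell cannot be told apart.

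The arrays themselves differed in likeness. Pearson's r across genes was 0.814 to 0.837 between knockout 2 and the wild type arrays, 0.903 to 0.927 for knockout 5, 0.803 for the pair of knockouts and 0.984 to 0.993 among wild types. Values of the genes on an array spread with an SD of 0.802 (knockout 2), 0.906 (knockout 5) or 0.991 to 1.02 (wild types). Ddr1 was at 5.96 and 5.80 in the knockouts against 6.02 in each wild type mouse, and its change of -0.14 did not pass (adjusted p = 0.377), so it does not check the labels. The deposited values of a gene were often the same number on several arrays, and the source of this was not tested. Wild type arrays all held 1 value in 16 of the 39 genes (41.0%) and in 39.1% of all genes, so a spread of 0 does not show equal expression between mice. The labels give each array a mouse of its own and say nothing further of how the animals were raised.

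Cdc6, the ATPase that brings the helicase to origins, had the largest change among the 39 genes at their brightest rows. It read 4.90 in knockout 2 and 4.79 in knockout 5, against 6.17, 6.21 and 6.04 in wild types 3, 4 and 6. The knockout values lay together and more than 1 log2 unit below every wild type value, and no array repeated another's value. Cdc6 averaged 4.84 ± 0.081 in knockout (SD, n = 2) and 6.14 ± 0.091 in wild type (SD, n = 3). Its change of -1.30 (SE 0.074) passed the test, at limma's adjusted p = 0.0192. It was -1.27 within date group 1 and -1.34 within date group 2, so the date groups, which share no array, gave nearly the same size. With the date group as a block the change was -1.31 and limma's adjusted p = 0.0537. Over 16 alternatives the change stayed between -1.36 and -1.16, while the adjusted p ran from 0.0093 to 1, and 8 of the 16 kept the call. Leaving out wild type 3, 4 or 6 ended it, with limma's adjusted p = 0.123, 0.140 and 0.179.

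None of the other loading factors passed the test. Orc1, the ATPase subunit of the origin recognition complex, stood at 4.57 on every array. All 5 arrays held 1 value in 6.26% of all genes, so this does not show equal expression of Orc1. Cdt1, which escorts the helicase to origins, read 5.40 in knockout 2 and 5.98 in knockout 5, against 5.85, 5.72 and 5.72 in wild type. Its knockout values lay on opposite sides of all wild type values, and its change of -0.076 (adjusted p = 0.837) turned positive under 3 of 4 scalings. Gmnn, which encodes the Cdt1 inhibitor geminin, was at 4.10 and 3.84 in the knockouts against 4.47, 4.10 and 4.10 in wild type. Knockout 2 shared its value with wild types 4 and 6, and the change of -0.25 did not pass (adjusted p = 0.399).

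The 6 subunits of the helicase ring did not move as a unit. None passed the test, 5 were lower and 1 was higher in knockout. Before adjustment 4 of the 6 had p under 0.05, beside 3637 of all 19938 genes. Mcm5 was at 5.21 and 5.29 in the knockouts, against 5.85, 5.97 and 5.73 in wild type. Both knockouts lay below all wild types, with a change of -0.60 (SE 0.088, adjusted p = 0.064), -0.64 within date group 1 and -0.56 within date group 2. Mcm7 was at 4.56 and 4.81 in the knockouts against 5.41, 5.18 and 5.18 in wild type, also without overlap, with a change of -0.57 (SE 0.12, adjusted p = 0.120). Mcm3 was at 5.09 and 4.81 in the knockouts against 5.24, 5.22 and 5.22 in wild type, a smaller gap without overlap (-0.28, SE 0.095, adjusted p = 0.262).

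Mcm4 went the other way. Knockout 2 gave 5.39 and knockout 5 gave 4.92, while all 3 wild types gave 4.45. Both knockouts lay above wild type by unequal amounts, 0.94 within date group 1 and 0.47 within date group 2. The change of 0.70 (SE 0.16) did not pass (adjusted p = 0.134). The wild type spread was 0, so its SE rests on the gap between the knockouts (SD 0.33) and limma's pooling over genes. Mcm2 was at 5.73 in knockout 2 and at 6.03 in knockout 5 and every wild type mouse. Mcm6 was at 5.09 and 4.86 in the knockouts against 4.99 in each wild type mouse, on opposite sides. Mcm3, Mcm5 and Mcm7 stayed lower and Mcm4 stayed higher under all 4 scalings, whereas Mcm2 turned positive under 2 and Mcm6 under 4 of them.

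**Figure D1:**
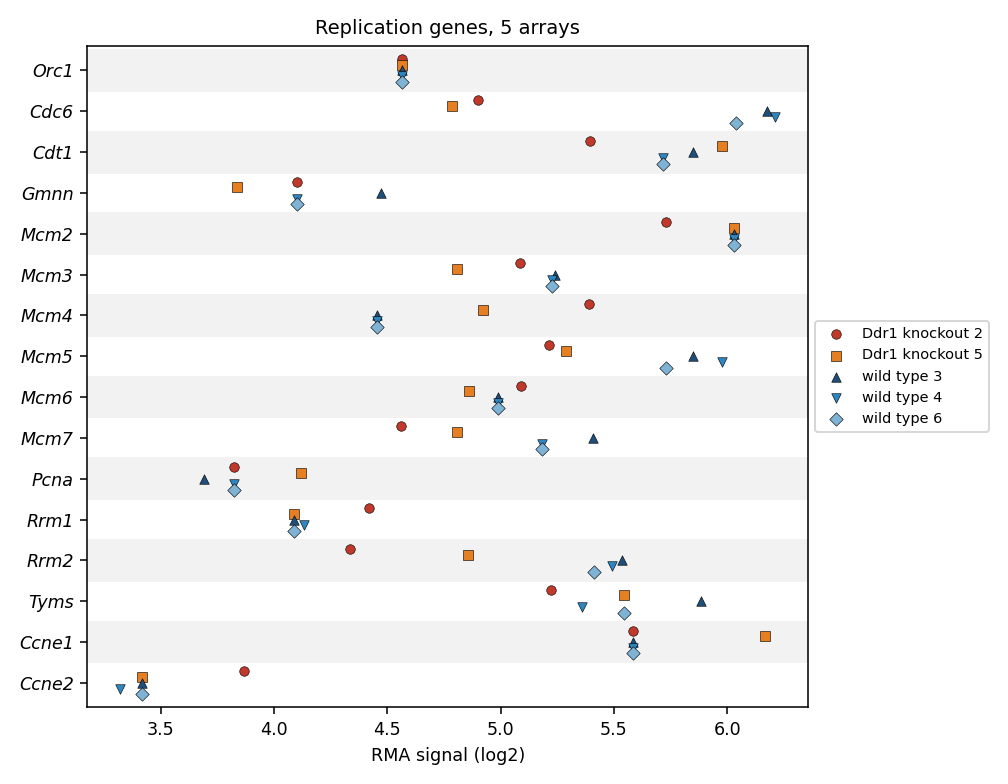
Log2 RMA signal of the 16 replication genes (rows), with 1 marker per array: knockout 2 and 5 in red and orange, wild type 3, 4 and 6 in blues. The knockout markers of Cdc6 at 4.90 and 4.79 stand clear of the wild type markers at 6.04 to 6.21, and those of Mcm4 lie to the right of wild type; stacked markers are identical values.

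None of the 4 genes of DNA synthesis and nucleotide supply passed, and Rrm2 alone had groups without overlap. Rrm2, the subunit of ribonucleotide reductase that limits deoxynucleotide supply in S phase, read 4.34 in knockout 2 and 4.85 in knockout 5, against 5.54, 5.49 and 5.41 in wild type. The knockouts lay below all wild types. The change of -0.88 (SE 0.18) was the second most negative among the replication genes but did not pass (adjusted p = 0.111), at -1.20 within date group 1 and -0.60 within date group 2. Rrm1, the large subunit of the same enzyme, was at 4.42 and 4.09 in the knockouts against 4.09, 4.13 and 4.09 in wild type. Tyms, which makes thymidylate, was at 5.22 and 5.54 against 5.89, 5.36 and 5.54 in wild type, with overlapping groups. Pcna, the sliding clamp of DNA polymerase, was at 3.83 and 4.12 in the knockouts against 3.69, 3.83 and 3.83 in wild type, and its 2 rows on the array held the same 5 values.

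The E-type cyclins, which drive entry into S phase with Cdk2, each moved on 1 knockout array. Ccne1 was at 5.59 in knockout 2 and in all wild types, and at 6.16 in knockout 5. Ccne2 read 3.87 in knockout 2 and 3.42 in knockout 5, against 3.42, 3.32 and 3.42 in wild type. Neither passed, with changes of 0.29 and 0.26 (adjusted p = 0.399 for each).

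Set against the promoters, the 7 replication genes with an E2F sequence (Orc1, Cdc6, Cdt1, Mcm3, Mcm5, Mcm6 and Mcm7) had changes from -1.30 to 0 and a median of -0.28, with 6 lower and 0 higher. The 6 without one had changes from -0.88 to 0.29 and a median of 0.0014, with 3 lower and 3 higher. Gmnn, Mcm4 and Ccne2 had no window and are in neither list, with changes of -0.25, 0.70 and 0.26. Cdt1 and Mcm6, counted here as lower, changed sign with the scaling. So did Mcm2 and Pcna, which had no E2F sequence. All the genes with an E2F sequence were licensing genes, and Mcm2 was the only licensing gene without one. Motif and role can thus hardly be told apart here. Of all 19938 genes, 10196 were lower and 8493 higher. The lists were compared after their values were seen and no test was made.

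Of the 18 mitotic genes none passed the test, with 7 lower, 10 higher and 1 at 0, and the median change was 0.026. The signs of Bub1b and Nusap1 turned under 1 of 4 scalings each. In 2 of the 18 genes p was under 0.05 before adjustment, beside 3637 of all 19938 genes. Within date group 1 the median difference of all 18 was 0.048 and within date group 2 it was -0.062. The differences had the same sign in both date groups in 4 of the 18 genes (22.2%), opposite signs in 7 (38.9%) and a 0 in at least 1 date group in 7. Over all genes the same sign was seen in 43.9% and opposite signs in 20.1%. Among the 16 replication genes 9 had the same sign (56.3%) and 4 had opposite signs (25.0%). The difference between the classes in these shares was not tested.

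Aurkb, the kinase of the chromosomal passenger complex that corrects spindle attachment, had the largest change among the mitotic genes at their brightest rows. It was at 5.59 and 5.80 in the knockouts, against 6.45, 6.25 and 6.25 in wild type. The knockouts lay below all wild types, at -0.62 (SE 0.11, adjusted p = 0.0826). Birc5, which encodes survivin of the same complex, was at 3.65 in knockout 2 alone, while knockout 5 at 4.50 shared the value of wild types 3 and 6. Aurka, the kinase of the spindle poles, was at 5.07 and 5.42 in the knockouts against 5.61, 5.61 and 5.62 in wild type (-0.37, SE 0.12, adjusted p = 0.250). Its groups did not overlap either. With the rows of a gene averaged, Top2a had a larger change than Aurkb, at 1.49.

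Genes of mitotic entry were mixed. Ccnb2, a B-type cyclin, was the mitotic gene above wild type in both knockouts, at 5.14 and 5.54 against 4.94, 4.97 and 4.97 in wild type (0.38, SE 0.14, adjusted p = 0.296). Ccna2, the A-type cyclin of S and G2 phase, read 4.37 in knockout 2 and 5.17 in knockout 5, on opposite sides of wild type values of 4.68, 4.61 and 4.61. Plk1, the polo-like kinase of mitotic entry, was at 4.26 in knockout 2, while knockout 5 shared the value of 5.05 with wild types 4 and 6 and wild type 3 was at 5.34. Cdk1, the mitotic kinase itself, was at 5.19 on every array except knockout 5, where it was at 4.75.

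Several spindle and checkpoint genes were above wild type in knockout 2 and not in knockout 5. Bub1, a kinase of the spindle checkpoint, read 4.29 in knockout 2 and 3.34 in knockout 5, against 3.34, 3.54 and 3.34 in wild type. Kif11, the motor that pushes spindle poles apart, was at 4.22 in knockout 2 and at 3.42 on all other arrays. Cdc20, the activator of the anaphase-promoting complex, was at 6.38 and 5.56 in the knockouts against 5.96 in each wild type mouse. Knockout 2 lay above all wild types in 9 of the 18 mitotic genes, which also held Top2a, Kif23, Cenpe, Nusap1, Kif20a and Ccnb2, and below them in 6. Knockout 5 lay above all wild types in 2 and below in 9. Over all genes knockout 2 lay above in 5717 and below in 8259, and knockout 5 above in 6258 and below in 6214. Bub1, Kif11 and Nusap1, at wild type means of 3.40, 3.42 and 4.12, belonged to the dimmest genes. After cyclic loess their changes went from 0.41, 0.40 and 0.11 to 0.15, 0.14 and -0.0069. That of Cenpe went from 0.25 to 0.21. Those of Top2a, Kif23, Cdc20, Kif20a and Ccnb2 became larger. The part of signal level in the high values of knockout 2 was not tested.

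Neither proliferation marker passed the test, and the rows of Top2a disagreed. Mki67, the nuclear protein used to count cycling cells, was at 4.76 in knockout 2 and at 5.14 on the other 4 arrays. Top2a, the topoisomerase that untangles sister chromatids, was at 5.61 and 4.76 in the knockouts against 5.06, 4.99 and 4.99 in wild type. A second, dimmer row of Top2a was at 4.48 and 3.34 in the knockouts against 1.12, 0.927 and 1.28 in wild type, far apart and without overlap. With both rows averaged the change of Top2a was 1.49 in place of 0.17, and it did not pass (adjusted p = 0.136). Bub1b and Kif20a changed by -0.052 and 0.043, and Tpx2, a spindle assembly factor, stood at 4.70 on every array.

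**Figure D2:**
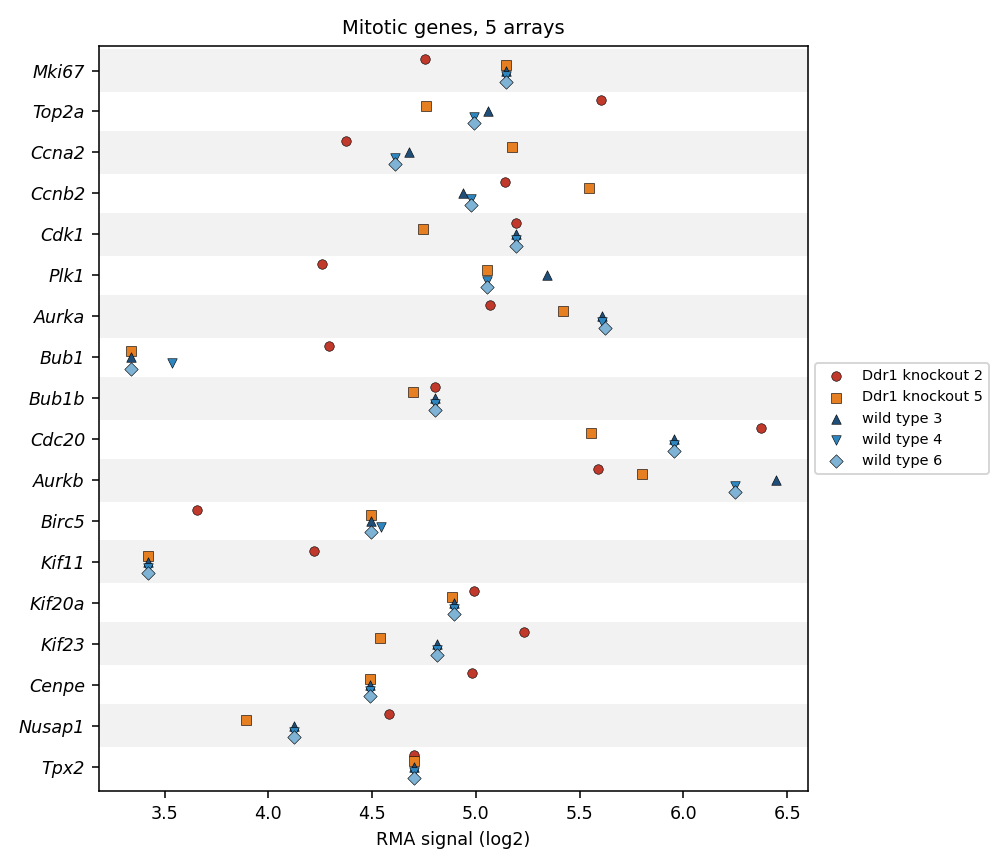
Log2 RMA signal of the 18 mitotic genes (rows), with 1 marker per array, knockouts in red and orange and wild types in blues. The red markers of knockout 2 lie right of wild type for Bub1 and Kif11 and left of it for Plk1 and Birc5, while Aurkb at 5.59 and 5.80 is left of wild type in both knockouts.

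Averaged over genes, the replication genes stood at 4.83 in knockout 2 and 4.88 in knockout 5, against 5.08, 5.01 and 4.99 in wild type. Both knockouts lay below all wild types, with Cdc6 and Rrm2 having the most negative changes in that mean. The median of all genes was also lower in both knockouts, at 5.05 and 5.14 against 5.16 to 5.17 in wild type. The mitotic genes stood at 4.88 and 4.76 in the knockouts, against 4.86, 4.84 and 4.83 in wild type, with a knockout on each side. The replication mean minus the mitotic mean was 0.037 ± 0.12 in knockout (SD, n = 2) and 0.19 ± 0.029 in wild type (SD, n = 3), a difference of -0.15. That difference was -0.27 within date group 1 and -0.049 within date group 2, so it was larger in date group 1, and it was -0.066 without knockout 2. The median change of the replication genes was -0.11, and it moved to -0.036 after cyclic loess between arrays and to 0.017 with arrays centred and scaled. Since the genes were chosen with earlier results of these data known, no test of these averages was made.

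**Figure D3:**
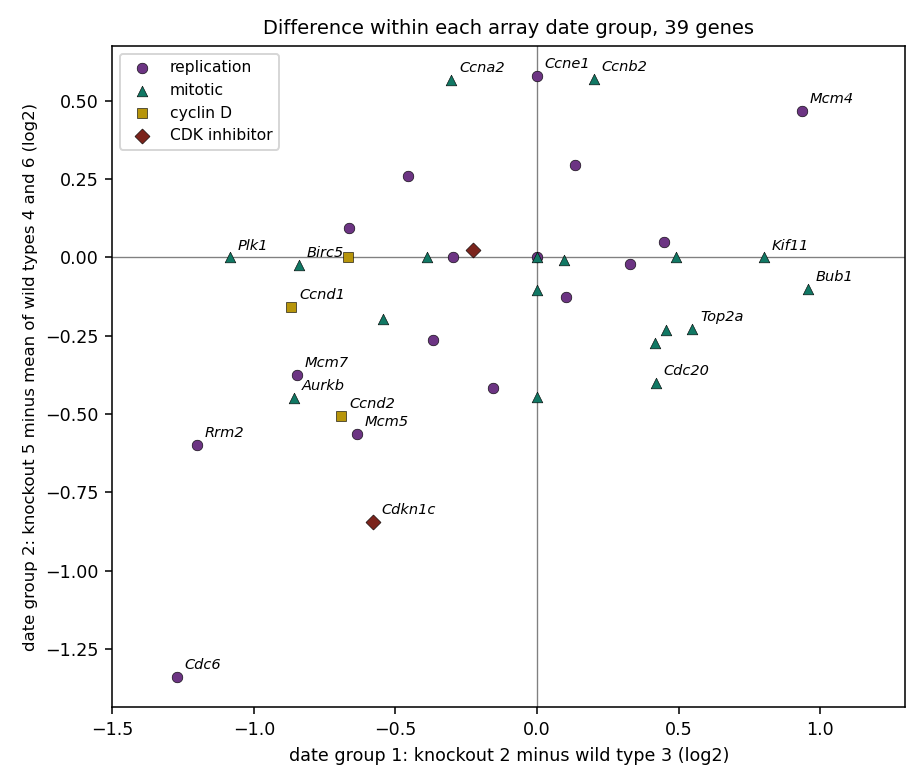
Difference between genotypes (log2) in date group 1 (knockout 2 minus wild type 3, x axis) and in date group 2 (knockout 5 minus the mean of wild types 4 and 6, y axis), 1 marker per gene, coloured by class. Cdc6 at -1.27 and -1.34 and Cdkn1c at -0.58 and -0.84 lie deep in the lower left, and mitotic genes such as Bub1 and Cdc20 lie in the lower right.

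Cdkn1c was the other gene that fell. It encodes p57, a CDK inhibitor of tissues that leave the cell cycle, and mice without it have defects of endochondral ossification. Cdkn1c read 5.83 in knockout 2 and 5.59 in knockout 5, against 6.41, 6.44 and 6.43 in wild types 3, 4 and 6. Both knockouts lay well below a tight wild type group. Its level averaged 5.71 ± 0.17 in knockout (SD, n = 2) and 6.43 ± 0.012 in wild type (SD, n = 3), a change of -0.71 (SE 0.085) with limma's adjusted p = 0.0462. It was -0.58 within date group 1 and -0.84 within date group 2. The call was the less stable of the 2, held under 5 of 16 alternatives, with changes from -0.84 to -0.50 and adjusted p from 0.00036 to 0.541. With the date group as a block limma's adjusted p = 0.0914, after cyclic loess it was 0.161, and without wild type 3, 4 or 6 it was 0.212, 0.245 and 0.248. Cdkn1b, the inhibitor p27, was at 5.18 and 5.20 in the knockouts against 5.41, 5.20 and 5.16 in wild type, within the wild type range. A second, dimmer row of Cdkn1b was at 3.75 and 2.51 in the knockouts against 2.21 in each wild type mouse.

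The 3 D-type cyclins were all lower in knockout and none passed. Their wild type means were 5.53 to 6.45, above the median of all genes on each wild type array (5.16 to 5.17). With the dimmest genes left out, the median change over all genes was also negative, at -0.076. The part of signal level in the changes of these cyclins was not tested. Ccnd2 was at 5.90 and 5.88 in the knockouts, against 6.59, 6.43 and 6.35 in wild type. The knockouts were close to each other and below all wild types (-0.57, SE 0.085, adjusted p = 0.0675). Ccnd1, the D cyclin through which growth signals drive chondrocyte division in mouse growth plates, was at 4.83 and 5.30 in the knockouts against 5.69, 5.46 and 5.45 in wild type (-0.47, SE 0.18, adjusted p = 0.331). Its groups did not overlap. Ccnd3 was at 5.21 in knockout 2 and at 5.88 on the other 4 arrays. The direction of Ccnd1 and Ccnd2 held under all 4 scalings.

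In the wider lists the shares of calls are read beside the 1.55% of all genes that rose and the 2.18% that fell. Of 41 further replication genes with a row, 1 rose and 0 fell. Prim1, the catalytic subunit of primase, was at 4.53 and 4.51 in the knockouts against 4.27, 4.23 and 4.27 in wild type (0.26, SE 0.022, limma's adjusted p = 0.0288), higher in both knockouts by nearly the same amount. Of 45 further mitosis genes, 1 rose and 0 fell. Mad2l1, the checkpoint protein that holds back Cdc20, was at 4.66 and 4.54 in the knockouts against 3.91, 3.87 and 3.91 in wild type (0.70, SE 0.043, limma's adjusted p = 0.0213). Prim1 and Mad2l1, at wild type means of 4.26 and 3.90, belonged to the dimmest genes. With the dimmest genes left out, these were not tested. Over all genes 104 then rose in place of 309, and 402 fell in place of 435. The background of rises thus varied with signal level, and these 2 calls were not compared with genes of matched level. Of 18 p53 response genes, 1 fell and 0 rose. Plk3, a stress-responsive polo-like kinase, was at 4.38 and 4.54 in the knockouts against 5.02 in each wild type mouse (-0.56, SE 0.057, limma's adjusted p = 0.0366). As for Mcm4, the wild type spread of Plk3 was 0, so its SE rests on the knockouts (SD 0.12) and limma's pooling over genes. With identical wild type values left out, Plk3 was not tested. In that setting limma's adjusted p was 0.118 for Prim1, which lost its call, and 0.0333 for Mad2l1, which kept it. Prim1 held its call under 4, Mad2l1 under 6 and Plk3 under 6 of 15 alternatives each. Leaving out any 1 wild type mouse ended all 3 calls, as did the date group as a block, with limma's adjusted p = 0.0762 for Prim1, 0.0537 for Mad2l1 and 0.0776 for Plk3. The adjusted p over alternatives ran from 0.0122 to 1 for Prim1, from 0.0014 to 1 for Mad2l1 and from 2.9e-07 to 0.217 for Plk3.

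None of the 32 genes of G1 control and E2F passed, with 3 at p under 0.05 before adjustment, beside 3637 of all 19938 genes. E2f2, an activating E2F factor, was at 5.66 and 5.36 in the knockouts against 6.19, 6.32 and 6.22 in wild type (-0.74, SE 0.11, adjusted p = 0.0679). Cdk4, the kinase partner of the D cyclins, was at 5.06 and 5.96 in the knockouts against 6.40, 6.68 and 6.40 in wild type (-0.99, SE 0.32, adjusted p = 0.251). Cdkn2a, the locus of the inhibitors p16 and p19Arf, was at 6.15 and 6.64 against 7.06, 6.87 and 6.87 in wild type (-0.54, SE 0.18, adjusted p = 0.263). All 3 were below every wild type mouse in both knockouts. The median changes of the 4 wider lists were 0 for replication, 0 for mitosis, -0.00012 for G1 control and -0.084 for the p53 response.

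**Figure D4:**
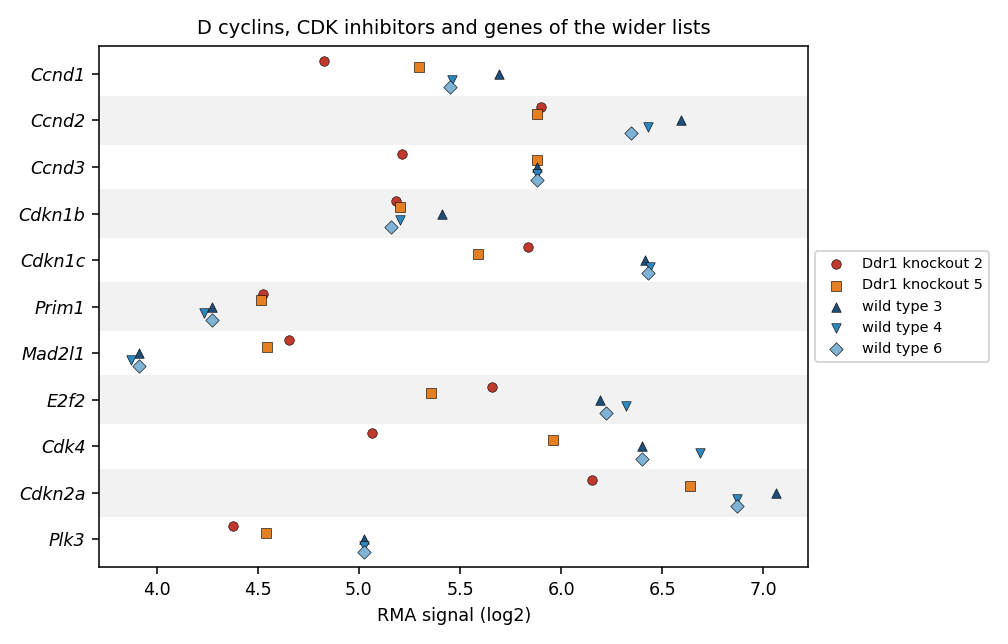
Log2 RMA signal of the D-type cyclins, the CDK inhibitors and 6 genes of the wider lists (rows), with 1 marker per array, knockouts in red and orange and wild types in blues. Cdkn1c, Ccnd2, E2f2, Cdk4 and Plk3 lie left of wild type in both knockouts, and Prim1 and Mad2l1 lie right of it.

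Markers of the tissue and of its neighbours were followed beside these genes. Of 10 chondrocyte markers, 2 fell, Sox9 (-0.42, SE 0.029, limma's adjusted p = 0.0229) and Comp (-0.41, SE 0.038, limma's adjusted p = 0.0327). That count stands beside 2.18% of all genes that fell. The summed log2 signal of the 10 markers was 53.5 and 57.1 in the knockouts and 57.3 to 57.8 in wild type. It was lower in both knockouts and mostly in knockout 2. Knockout 5 lay below all wild types in 3 of the 10 markers, within their range in 6 and above in 1. Those 2 calls were lost with the date group as a block, at limma's adjusted p = 0.0603 for Sox9 and 0.0886 for Comp. Both were also lost under all 4 scalings and without wild type 3, 4 or 6. The 9 markers of marrow progenitors and neutrophils summed to 48.1 and 49.6 in the knockouts and 48.4 to 48.7 in wild type. The 6 B cell markers summed to 32.5 and 34.0 in the knockouts and 32.4 to 32.7 in wild type, and the 4 erythroid markers to 22.0 and 21.4 against 21.8 to 21.9. The 5 skeletal muscle markers summed to 29.1 and 29.5 against 30.3 to 30.9, the 4 endothelial markers to 19.7 and 19.5 against 20.2 to 20.8, and the 6 fibroblast and synovium markers to 33.8 and 36.3 against 36.2 to 36.9. Muscle and endothelial sums were thus lower in both knockouts, though not every marker was. The groups did not overlap in 1 of the 5 muscle markers and 2 of the 4 endothelial markers, all lower in knockout. Mylpf (0.066) and Cdh5 (0.10) had higher knockout means. Over all genes the groups did not overlap in 31.5%, with 18.6% lower and 13.0% higher. Overlap was also absent in 3 of the 10 chondrocyte, 2 of the 6 fibroblast and synovium and 1 of the 5 osteoblast markers, all lower. It was absent in 2 of the 6 B cell markers, both higher. The marrow list and the macrophage and osteoclast list each had 1 lower and 1 higher, and the erythroid list had 0. The 5 osteoblast markers summed to 26.4 and 27.4 against 26.9 to 27.0, and the 5 macrophage and osteoclast markers to 24.1 and 25.5 against 24.5 to 24.7, with a knockout on each side of wild type. No marker of another cell type passed the test, and none of the 54 markers was at 0, the lowest value being 4.00. Detection above background was not assessed. The part of any of these in the changes of Cdc6, Cdkn1c or the mitotic genes was not tested.

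**Figure D5:**
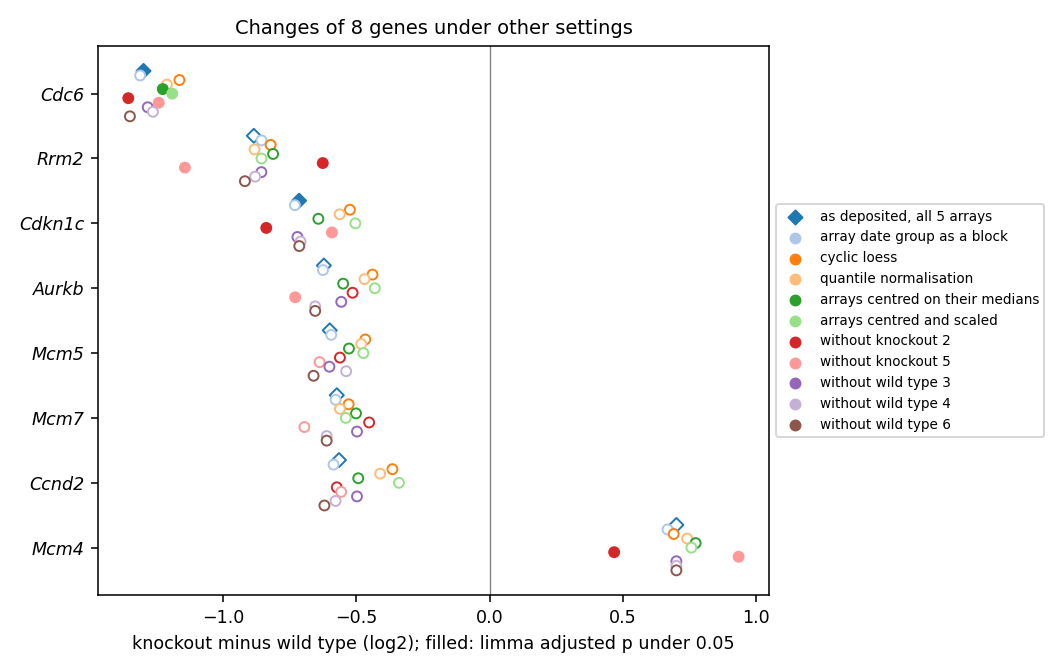
Change between genotypes (log2, x axis) of 8 genes as deposited (diamonds) and under 10 other settings (circles), filled where limma's adjusted p was under 0.05. Cdc6 lies between -1.36 and -1.16 under all of them, and circles of the same gene are filled or empty at nearly the same change.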

How the data were processed

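Gene expression was measured on 5 arrays of mandibular condyle cartilage RNA. The deposited table holds log2 values of 35556 rows, made by the authors with Affymetrix Expression Console and RMA, per the submitters' processing notes; neither a version nor a genome build is stated there (not given in the sources used here). Rows were named from the platform annotation: 21789 had 1 gene symbol, 1621 several and 12146 none. Genes with 1 symbol were fitted with limma 3.58.1 in R 4.3.3 (lmFit, eBayes, knockout minus wild type, two-sided), with Benjamini-Hochberg adjustment over 19938 genes and a threshold of 0.05. The fit was tested on simulated data with normal noise of the same spread for every gene. That simulation held no repeated values and no difference in spread between arrays, so it cannot show how the fit handles either. P-values rest on the spread between 5 arrays, which limits their precision; identical values lower it. Array date groups came from the array names. The groups share no replicate number. All members with a row were named, and of 4 wider lists the genes past the threshold or the 3 of lowest p. Members and lists were chosen with earlier results of these data known; the promoter motifs and the display of 8 genes were chosen after seeing values. In the wider lists, rows were found for 41 of 42 replication, 45 of 46 mitosis, 32 of 32 G1 and 18 of 20 p53 genes. Promoter windows are from RefSeq. The alternatives covered the date block, scaling, rows, filters, variance model, array weights, threshold and each array left out.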

Additional observations from a re-analysis of the deposited data

How the results depend on the processing

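The groups share no replicate number, so the array date group, which holds both genotypes, served as the block. The count of 744 genes past the threshold became 0 with the date group as a block, cyclic loess, quantile normalisation, array weights and a threshold of 0.01 (unadjusted p under 0.05 in 3829, 3919, 3761, 1917 and 3637 genes). It was 177 with arrays centred and scaled, of which 57.1% were rises, and 635 with arrays centred, with 54.0% rises in place of 41.5%. With 1 array left out it ran from 0 (each wild type, with 2312 to 2458 genes at p under 0.05 before adjustment) to 9999 (knockout 5), where a lone knockout array is assumed to vary like wild type. The count of 2 members past it became 0 under those same 5 settings and 1 with arrays centred, arrays centred and scaled, or a trend with robust fitting, and ran from 0 to 24 with 1 array left out. The median change of the replication genes moved to -0.036 (cyclic loess), -0.045 (quantile), -0.040 (centred), 0.017 (centred and scaled), -0.18 (dimmest 25% left out) and -0.25 (identical wild type values left out), and ran from -0.13 to -0.033 with 1 array left out. That of the mitotic genes moved to 0.098 (centred), 0.079 (centred and scaled) and -0.11 (identical wild type values left out), and ran from -0.082 to 0.048. The replication minus mitotic difference was -0.22 with rows averaged and with identical wild type values left out, and ran from -0.23 to -0.066 with 1 array left out. With 1 array left out, the change ran from -0.13 to 0.10 for Mcm6, -0.26 to 0.54 for Ccna2, -0.40 to 0.42 for Cdc20, -0.0083 to 0.095 for Kif20a, -0.27 to 0.42 for Kif23 and -0.23 to 0.46 for Nusap1, and each gene passed with opposite signs when knockout 2 or knockout 5 was left out. The cause of these shifts was not tested, apart from the fewer genes or arrays that some settings hold by construction. Over the named genes, 556 gene and setting pairs kept their call or moved by less than the spread between replicates, 70 lost a call, 35 gained one, 58 moved by more than that spread and 6 reversed.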

Other observations

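Rows that carry several gene symbols entered no comparison. The row shared by Cdkn1a and 4930567H12Rik was at 4.08 and 4.56 in the knockouts and at 4.26 in each wild type mouse. The 2 rows shared by Top2a and Hibadh were at 2.82 and 2.54, and at 2.90 and 2.44, in the knockouts, against 1.58 to 1.62 and 1.51 to 1.69 in wild type.

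Genes also shared exact values with each other on the same array. On knockout 2 and knockout 5, 27.1% and 31.2% of the genes tested held a value that another gene held too, and on wild types 3, 4 and 6 it was 44.2%, 49.8% and 53.6%. Among the 39 cell cycle genes the number was 10 and 14 on the knockout arrays and 16, 18 and 21 on the wild type arrays. On knockout 5 and wild types 3 and 6, Kif11 and Ccne2 were both at 3.42.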
